A study of Mus musculus with 24 samples.

Results

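The genes described here are 9 transcription factors of the muscle lineage: the myogenic regulatory factors Myod1, Myog, Myf5 and Myf6, the MEF2 family members Mef2a, Mef2c and Mef2d, and Six4 and Pax7. They were taken by name and not by a cut-off on a measured value, but earlier results of these data were known when they were chosen. All 9 had reads among the 15439 genes with reads in C2C12, and 4 of them had reads among the 7557 genes with reads in NSC34. In C2C12 they held 10326 reads together, 0.312% of all reads, and Myog held 87.0% of those.

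C2C12 is a mouse myoblast line that fuses into muscle cells in culture, and NSC34 is a mouse motor-neuron-like line. Both were labelled wild type. Wild-type C2C12 controls were grown without co-culture (n = 6), and wild-type co-cultured C2C12 were grown with the NSC34 line for 3 days (n = 6). Wild-type NSC34 likewise had 6 control and 6 co-cultured libraries. Total RNA was sequenced on a Nanopore MinION instrument. The series title concerns Apoe3 and the clustering of acetylcholine receptors through Lrp4, and the comparison treated here asks which of these factors differed in muscle cells kept with motor-neuron-like cells. Each group is 1 established line. The labels do not say whether libraries came from separate cultures, so p-values measure the spread between these libraries, which may be technical. How the cells of each line were recovered from co-culture is not given in the labels. In such bulk RNA, fewer cells of a type and less RNA per cell cannot be told apart.

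The myogenic regulatory factors are basic helix-loop-helix proteins that bind the E-box together with E-protein partners. Myod1 and Myf5 act early, in committed myoblasts, Myog acts when myoblasts leave the cell cycle and differentiate, and Myf6 acts mainly in mature fibres. MEF2 proteins bind an AT-rich site in many muscle genes and work with the myogenic factors, while Pax7 marks muscle stem cells and Six4 binds the MEF3 site in the Myog promoter.

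The 12 C2C12 libraries held between 121154 and 658075 reads, and the 12 NSC34 libraries between 88 and 30314. Of the 8 other muscle markers (Des, Cdh15, Chrna1, Actc1, Tnnt1, Mylpf, Acta1 and Ckm), all 8 had reads in C2C12. Their summed share was 1.22% to 1.53% of the reads in control libraries and 1.44% to 1.73% in co-cultured ones. Of 29 neuron and motor neuron markers, 11 were at 0 in C2C12, among them Chat, Slc18a3, Isl1 and Mnx1. In NSC34 itself these had only 1, 0, 3 and 0 reads. Uchl1, Tubb3, Prph and Stmn3 had 86, 26, 25 and 21 reads in NSC34, and 31, 190, 1 and 0 in C2C12. Stmn2 had 369 reads in C2C12 and 0 in NSC34. The summed share of the 29 markers in C2C12 was 0.0195% to 0.0289% in controls and 0.0202% to 0.0228% in co-cultures. The 2 that could be tested, Tubb3 and Stmn2, had log2 fold changes of -0.27 and -0.13 and were not past the threshold. Of 20 markers of glia, endothelium, blood and fat, 15 were at 0 in C2C12.

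Myog, the differentiation factor, was the member read most deeply, and it rose in co-cultured C2C12. The gene (ENSMUSG00000026459.5) lies on chromosome 1 at 134289989 to 134292548 of GRCm38, on the plus strand, and had reads on 1 annotated transcript. Its promoter is shown because it is known to hold sites for other genes of this group. The stretch below, from RefSeq on build GRCm38.p6, lies at chr1:134289754-134289988 on the plus strand and ends at the base before the annotated start. Capitals mark, in order, an E-box (CANNTG), the MEF3 site (TCAGGTT) and letters that match the MEF2 site only with its last base left free.
Myog promoter: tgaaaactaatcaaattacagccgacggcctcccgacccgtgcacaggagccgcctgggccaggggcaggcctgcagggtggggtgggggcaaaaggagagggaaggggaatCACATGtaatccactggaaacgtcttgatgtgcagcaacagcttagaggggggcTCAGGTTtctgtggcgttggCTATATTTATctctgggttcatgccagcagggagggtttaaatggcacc
The last base of the E-box CACATG lies 118 bases before the start, that of the MEF3 letters TCAGGTT 63 bases before it, and that of the MEF2 letters CTATATTTAT 40 bases before it. Both strands were searched. The whole Myog window of 300 bases, which runs past the start, held 2 E-box matches. Only CACATG lies wholly before the start, so the other is not in the stretch shown. The MEF2 site with its last base fixed as A or G was searched too and had 0 matches in the Myog window. Among 32851 promoter windows of 300 bases, 72.3% held an E-box and 4.07% the MEF3 letters. The MEF2 site was in 3.19% with its last base fixed and in 7.66% with it free. These matches describe letters and not binding, and an E-box match is common at this length.

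Levels are given as CPM, the reads of a gene per 1000000 reads of its library. In control C2C12 libraries Myog stood at 1803 CPM at the lowest, 2356 at the median and 2747 at the highest. In co-cultured libraries the lowest was 2491, the median 3329 and the highest 3672. All 6 co-cultured libraries lay above the control median and 4 lay above the highest control, so the groups overlapped. Among all tested genes 1.71% had groups that did not overlap. The means were 2346 ± 354 (SD, n = 6) and 3167 ± 492 (SD, n = 6) CPM, from 3530 and 5451 reads. In the edgeR quasi-likelihood fit over the 2570 genes that passed the filter on low counts, the log2 fold change was 0.43 (SE 0.11, 95% interval 0.21 to 0.65, adjusted p = 0.0457). An exact two-sided permutation test of CPM gave p = 0.0152, unadjusted, as 1 of 9 such tests.

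Of the 3 members that passed the filter, 2 were past the threshold (adjusted p under 0.05 in edgeR): Myog higher and Mef2a lower. Among all 2570 genes tested, 37 were past it, which is 1.44%, with 21 higher (0.817%) and 16 lower (0.623%). Both calls sat close to the threshold. For Myog the adjusted p was 0.249 in edgeR without the shallow libraries (log2 fold change 0.32; controls 1 and 4 and co-culture 3 left out) and 0.0576 in limma-voom. In edgeR it was between 0.0619 and 0.106 when any one of controls 1 to 4 or co-cultures 3 to 6 was left out, and under 0.05 for the other 4 libraries. The fold change was above 0 in every one of these fits (0.32 to 0.51 over all alternatives).

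**Figure D1:**
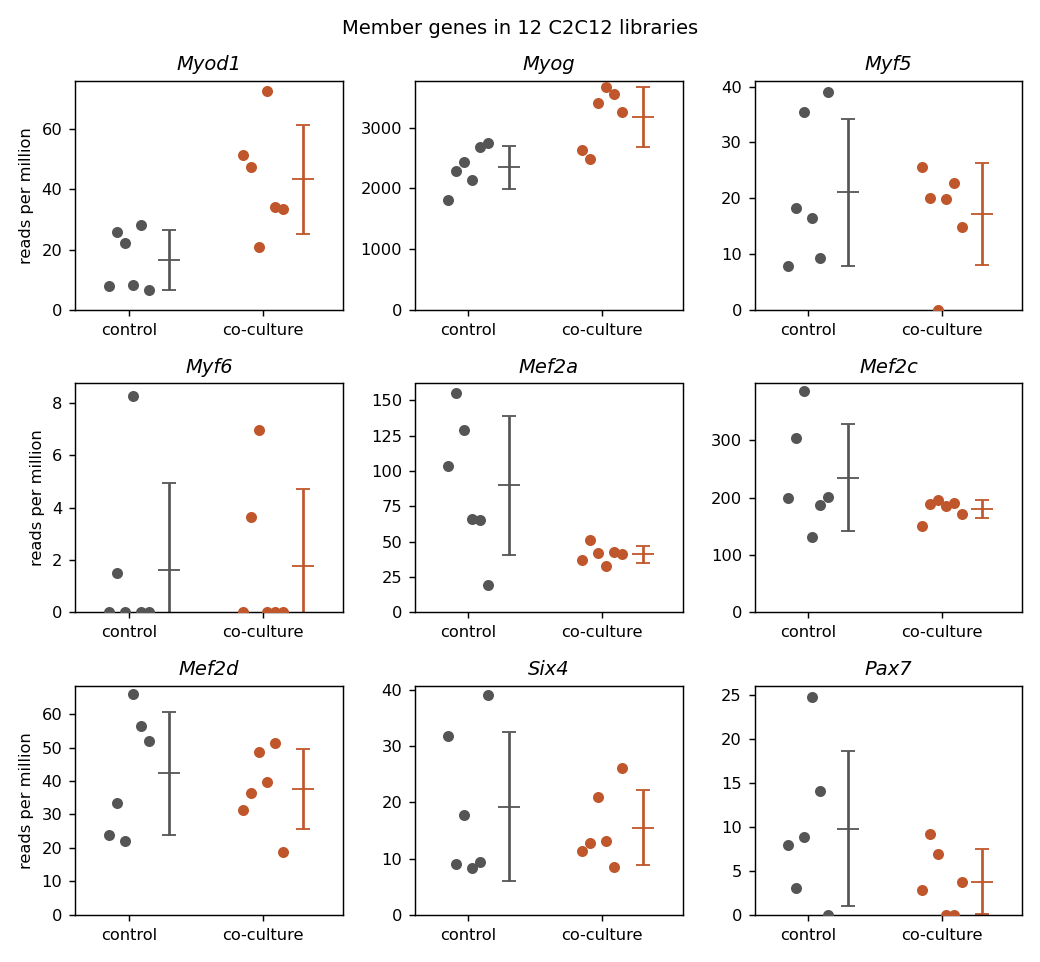
CPM (reads per 1000000 reads of the library, vertical axes, from 0) of the 9 members in the 6 control (grey) and 6 co-cultured (orange) C2C12 libraries. Points are libraries, and the bar beside them is the mean with 1 SD. Myog and Myod1 sit higher in most co-cultured libraries, and Mef2a spreads from 19.5 to 155 in controls against 33.0 to 51.2 in co-culture.

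Myod1, the early determination factor (chromosome 7, 46376474 to 46379099, plus strand), had far fewer reads: 31 in controls and 79 in co-cultures. Control libraries held 6.51 CPM at the lowest, 15.2 at the median and 28.1 at the highest. Co-cultured libraries held 20.9, 40.8 and 72.6 in the same order. All 6 co-cultured libraries were above the control median and 5 above the highest control, while co-culture 3, with 3 reads, fell inside the control range. The means were 16.5 ± 9.96 and 43.4 ± 18.0 CPM (SD, n = 6 each), and the exact two-sided permutation test gave p = 0.00866, unadjusted. Myod1 did not pass the filter. In the edgeR fit without a filter, over 15439 genes of which 106 (0.687%) were past the threshold, its log2 fold change was 1.20 (SE 0.34, 95% interval 0.53 to 1.87) with adjusted p = 0.0593. It missed the threshold there, and it passed when co-culture 3 was left out (log2 fold change 1.27, edgeR adjusted p = 0.0463). Over the 11 other left-out libraries the edgeR log2 fold change was 1.04 to 1.45, and the adjusted p, 0.0537 to 0.259, was over the threshold each time. Myod1 was also over it in edgeR without the shallow libraries (adjusted p = 0.201) and in limma-voom (adjusted p = 0.187).

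Myf5, the other early factor, and Myf6, the factor of mature fibres, lie next to each other on chromosome 10, at 107482908 to 107486134 and 107492853 to 107494737 on the minus strand. Myf5 had 31 reads in controls and 35 in co-cultures. Its highest co-cultured library stood at 25.6 CPM, under the highest control at 39.1, and co-culture 3 had no Myf5 read. The edgeR log2 fold change of Myf5 without a filter was -0.03, with a 95% interval of -0.85 to 0.78. Myf6 had 2 reads in controls and 3 in co-cultures and was at 0 in 8 of 12 libraries, so a difference was not detectable at this depth. Of the reads of the 4 myogenic factors, Myog took 98.2% in controls and 97.9% in co-cultures.

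Levels were set against each other by mean CPM in controls, without division by transcript length. Myog stood at 2346 and Mef2c, the next, at 235. Mef2a followed at 89.7, then Mef2d at 42.3, Myf5 at 21.1, Six4 at 19.2, Myod1 at 16.5, Pax7 at 9.78 and Myf6 at 1.63. Pooled, Myog had 113.9 times the reads of Myod1 in controls and 69.0 times in co-cultures. From Mef2d to Myod1 the order rests on 23 to 58 control reads a gene. Their SDs were 43.3% to 68.7% of the mean, so these neighbours did not differ beyond their spread. Per kilobase of annotated transcript the order was another, with Myf5 at 10.1 and Myod1 at 8.86 above Mef2d at 8.34 and Six4 at 2.92. Whether division by length suits these Nanopore reads was not tested. The 31 reads of Myf5 and of Myod1 were the same number, so their order on the per-length scale also reflects annotated length.

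**Figure D2:**
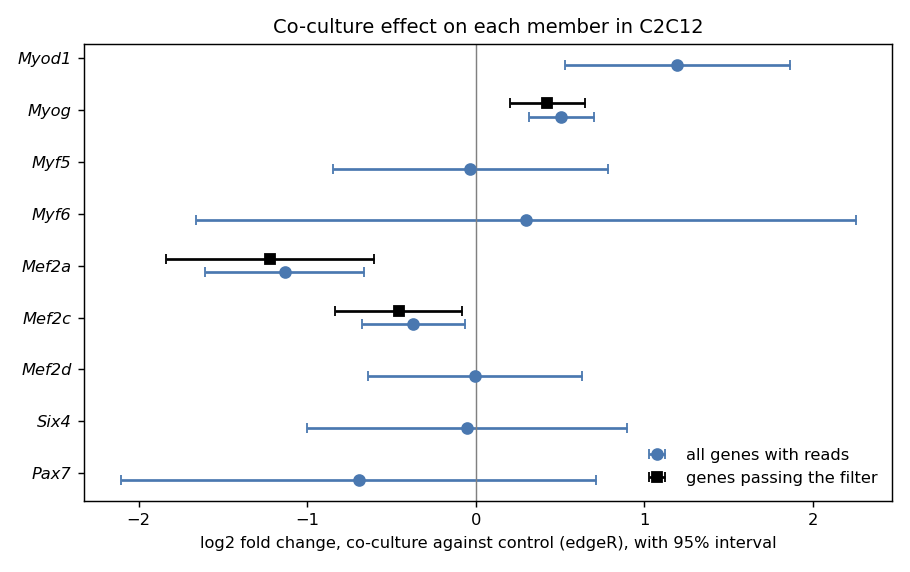
Log2 fold change of co-culture against control C2C12 (horizontal axis) with its 95% interval for each member, from edgeR on genes that passed the filter (black squares) and on all genes with reads (blue circles). The intervals of Myog and Myod1 lie above 0 and those of Mef2a and Mef2c below 0, and the 5 other members have intervals that include 0.

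Mef2a fell in co-cultured C2C12, and its control libraries were widely spread. Mef2a (chromosome 7, 67231163 to 67372858, minus strand) is a MEF2 factor made in many tissues. Control libraries held 19.5 CPM at the lowest, 84.7 at the median and 155 at the highest, and co-cultured ones 33.0, 41.4 and 51.2. In 5 of 6 controls Mef2a was above every co-cultured library, but control 6, with 3 reads, was the lowest of all 12. The means were 89.7 ± 49.1 and 41.1 ± 6.11 CPM (SD, n = 6 each), from 169 and 78 reads. The SD was 54.7% of the mean in controls and 14.9% in co-cultures. The edgeR log2 fold change was -1.22 (SE 0.30, 95% interval -1.84 to -0.61, adjusted p = 0.0415), and the exact permutation test gave p = 0.0325, unadjusted.

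The Mef2a call was lost in edgeR without the shallow libraries (log2 fold change -1.26, adjusted p = 0.124) and in limma-voom (-1.13, adjusted p = 0.107). It held when control 4, 5 or 6 was left out, and was lost without any one of the 9 other libraries, with edgeR adjusted p from 0.0603 to 0.167. The smallest change, -0.90, came without control 2, the deepest library. The direction of the gene was downward in every fit run.

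**Figure D3:**
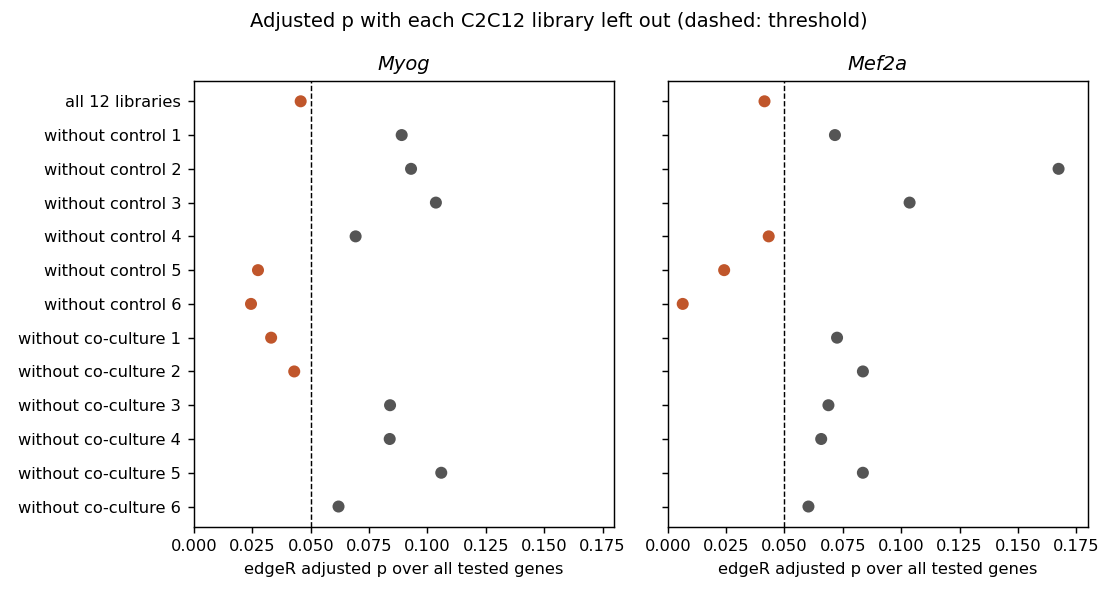
Benjamini-Hochberg adjusted p of Myog and Mef2a in edgeR (horizontal axes) with all 12 C2C12 libraries and with each one left out (rows). Orange points are under the threshold of 0.05 (dashed line) and grey points over it. Myog stays under it in 4 of the 12 reduced fits and Mef2a in 3.

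Mef2c (chromosome 13, 83504034 to 83667080, plus strand), a MEF2 factor of heart, skeletal muscle and brain, had the most reads of the family, 399 in controls and 325 in co-cultures. Control libraries held 132 CPM at the lowest, 200.2 at the median and 386 at the highest, and co-cultured ones 151, 187 and 195. The ranges overlapped, with 4 controls above every co-cultured library. The edgeR log2 fold change of -0.46 (SE 0.18, adjusted p = 0.221) was not past the threshold, nor was it under any alternative tried, and the exact permutation p was 0.225. As with Mef2a the controls were more spread, with an SD of 39.4% of the mean against 9.11% in co-cultures.

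Mef2d (chromosome 3, 88142372 to 88172086, plus strand), another widely expressed MEF2 gene, had 58 and 67 reads and did not pass the filter. Its edgeR log2 fold change without a filter was -0.01 (95% interval -0.64 to 0.63). Of the reads on the 3 genes, Mef2c took 63.7% in controls and 69.2% in co-cultures, Mef2a 27.0% and 16.6%, and Mef2d 9.27% and 14.3%, of 626 and 470 reads. Mef2b, the fourth gene of the family, had 0 reads in C2C12.

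The 3 MEF2 genes hold a pair of coding exons, next to each other in the gene, of which a transcript as a rule keeps one. The first is known from many tissues and the second mainly from striated muscle. The exons are shown because most transcripts with reads divide by them. They were read on GRCm38 and are written in the direction of the gene. Capitals mark bases that are the same in the 3 first exons, or in the 2 second exons shown.
Mef2a first exon, chr7:67268269-67268400, minus strand: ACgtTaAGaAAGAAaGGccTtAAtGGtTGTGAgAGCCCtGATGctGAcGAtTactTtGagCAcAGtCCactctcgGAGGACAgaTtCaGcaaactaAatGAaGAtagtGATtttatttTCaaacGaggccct
Mef2c first exon, chr13:83625265-83625408, plus strand: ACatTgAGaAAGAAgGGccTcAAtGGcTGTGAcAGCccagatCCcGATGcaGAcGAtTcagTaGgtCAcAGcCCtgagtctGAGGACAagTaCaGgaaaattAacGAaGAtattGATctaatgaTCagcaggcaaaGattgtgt
Mef2d first exon, chr3:88158034-88158171, plus strand: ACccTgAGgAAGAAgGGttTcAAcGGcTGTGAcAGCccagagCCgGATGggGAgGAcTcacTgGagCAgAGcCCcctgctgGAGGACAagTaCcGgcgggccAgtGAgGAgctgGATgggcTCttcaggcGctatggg
Mef2c second exon, chr13:83625470-83625607, plus strand: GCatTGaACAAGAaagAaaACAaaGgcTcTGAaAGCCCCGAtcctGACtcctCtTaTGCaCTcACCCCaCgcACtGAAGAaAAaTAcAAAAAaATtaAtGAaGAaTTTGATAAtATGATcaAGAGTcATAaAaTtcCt
Mef2d second exon, chr3:88158221-88158355, plus strand: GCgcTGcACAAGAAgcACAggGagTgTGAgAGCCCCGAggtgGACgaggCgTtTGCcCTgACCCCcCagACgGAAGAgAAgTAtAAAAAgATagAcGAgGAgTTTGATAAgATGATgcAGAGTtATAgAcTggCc
The 3 first exons share 65 bases and the second exons of Mef2c and Mef2d 90. The second exons of Mef2c and Mef2d are 65.2% identical and their first exons 63.9%. The first and second exons are 63.2% identical within Mef2c and 51.4% within Mef2d. The first exon of Mef2a is 65.3% identical to the first of Mef2c and 59.4% to its second. To the first exon of Mef2d it is only 54.35% identical, less than the 2 exons within Mef2c.

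Shares of the pair are of reads on transcripts with one or the other exon. Transcripts with neither or both were left out. They held 11 control and 15 co-culture reads of Mef2a, 46 and 37 of Mef2c, and 0 and 2 of Mef2d. Most of the counted Mef2c reads were on the second exon, and most Mef2d reads on the transcript with the first. Most counted Mef2a reads were on the second exon in controls. In co-cultures the Mef2a interval, 42.5% to 68.1%, did not settle which exon held more. For Mef2c, 223 of 353 control reads were on transcripts with the second exon (63.2%, exact Clopper-Pearson 95% interval 57.9% to 68.2%), and 197 of 288 co-culture reads (68.4%, 62.7% to 73.7%). By library the Mef2c share was 37.5% at the lowest, 60.8% at the median and 94.6% at the highest in controls, and 47.8%, 69.6% and 96.4% in co-cultures. The groups overlapped over most of their range, and the exact permutation p was 0.463.

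For Mef2a, 102 of 158 control reads were on the second exon (64.6%, interval 56.6% to 72.0%) and 35 of 63 co-culture reads (55.6%, 42.5% to 68.1%), with an exact permutation p over libraries of 0.981. For Mef2d, 4 of 58 control reads (6.90%, 1.91% to 16.7%) and 4 of 65 co-culture reads (6.15%, 1.70% to 15.0%) were on the second exon, with an exact permutation p of 0.794. For both genes the pooled shares and the means of the library shares differed in sign, the means being 52.6% and 53.1% for Mef2a and 6.24% and 7.04% for Mef2d. The Mef2d share was below the Mef2c share in 12 of 12 libraries and below the Mef2a share in 11 of 12, the exception being control 6 with its 3 Mef2a reads. Intervals cover counting error only.

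**Figure D4:**
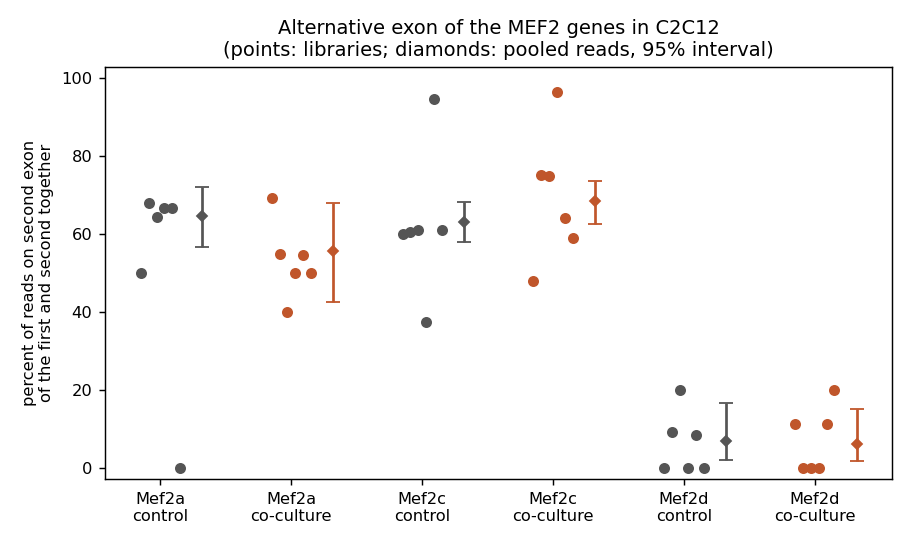
Percent of the reads on either exon of the pair that were on the second (vertical axis) for Mef2a, Mef2c and Mef2d, in control (grey) and co-cultured (orange) C2C12. Points are libraries, and diamonds are pooled reads with a 95% binomial interval. Control and co-culture overlap within each gene, and Mef2d lies at or below 20% in all libraries.

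A smaller exon further along the coding part is also kept or skipped. For Mef2a, 49 of 155 control reads and 26 of 62 co-culture reads were on full-length coding transcripts with it (31.6% and 41.9% of the pooled reads). The mean of the library shares went the other way, from 46.3 ± 27.5% to 45.1 ± 11.8% (SD, n = 6 each, exact permutation p = 0.961), so no direction was held by both. All these Mef2a reads were on Mef2a-208, which made up 49 of the 56 control and 26 of the 28 co-culture reads on the first exon of the pair. The Mef2a small-exon share is thus not separate from its share of the pair. For Mef2c the small-exon numbers were 31 of 375 and 11 of 318 (8.27% and 3.46%), and the exact permutation p over libraries was 0.32. Of 123 Mef2d reads on full-length coding transcripts 0 were on one with this exon, which allows a share of up to 2.44%. Among the same full-length coding Mef2c reads, transcripts with the longer last coding exon took 196 of 375 in controls and 146 of 318 in co-cultures. These are 52.3% and 45.9% (exact permutation p = 0.214).

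Transcripts of one gene that differ in this pair also differ at their 3' end. Mef2d-201, with the first exon of the pair, is annotated with a last exon of 3455 bases, and Mef2d-202, with the second, with one of 24 bases. Mef2a-208 has a last exon of 4066 bases, against 1022 and 1190 bases in Mef2a-201 and Mef2a-203. How reads that do not reach the pair were assigned is not given in the sources used here, and the part of the 3' ends in the shares was not tested.

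Mef2c-218 held 346 reads, Mef2c-228 178, Mef2c-201 73, Mef2c-202 54, Mef2c-222 28 and Mef2c-217 23. Mef2a-201 held 88, Mef2a-208 75, Mef2a-203 49 and the retained-intron transcript Mef2a-207 20. Mef2d-201 held 114. Mef2c-201 and Mef2c-202 differ by 60 bases, and both had reads in 3 of 12 libraries, 6 libraries having reads on Mef2c-201 alone and 3 on Mef2c-202 alone. Reads of such near-identical transcripts are therefore uncertain in their assignment. Mef2c-201 was counted with the second exon of the pair, while Mef2c-202 was left out of the shares of the pair. The Mef2c shares by library thus depend on that assignment. Control 5 had 16 reads on Mef2c-201 and 0 on Mef2c-202, and control 6 had 0 and 13.

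In the edgeR transcript fit 10 of 2586 transcripts (0.387%) were past the threshold, and 0 of the 3 member transcripts tested. Myog-201 stood at 0.41 on the log2 scale (SE 0.12, adjusted p = 0.144), Mef2c-218 at -0.13 (adjusted p = 0.980) and Mef2c-228 at -0.45 (adjusted p = 0.821). Myog has 1 transcript with reads, so its gene and transcript counts are the same reads, and the call differed with the set of features around it. In DESeq2 the transcript was past the threshold (log2 fold change 0.42, adjusted p = 0.0345). With a mean count of at least 5 in place of the filter, Mef2a-201 stood at -1.46 and Mef2a-208 at -1.06 on the log2 scale, with edgeR adjusted p of 0.435 and 0.401. Transcript use within genes gave 0 calls of 594 transcripts in edgeR's diffSpliceDGE (0%), where 9 had an unadjusted p under 0.05. With the mean count of at least 5 it gave 0 of 1485, where 30 had such a p. The share of Mef2c-218 among Mef2c reads was 39.4 ± 8.37% in controls and 52.5 ± 15.9% in co-cultures (SD, n = 6 each, exact permutation p = 0.115, the lowest of the 7 transcript shares tested, unadjusted).

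Six4, a homeobox factor that binds the MEF3 site (chromosome 12, 73099609 to 73113456, minus strand), had 23 control and 26 co-culture reads on 2 annotated transcripts, 28 on one and 21 on the other. Control libraries ranged up to 39.1 CPM and co-cultured ones from 8.54 to 26.1, so the co-cultured range lay inside that of controls. Its edgeR log2 fold change without a filter was -0.05 (95% interval -0.999 to 0.90). Pax7, the stem cell marker (chromosome 4, 139737062 to 139833528, minus strand), had 11 and 8 reads and was at 0 in 3 libraries. Its edgeR log2 fold change without a filter was -0.69 (95% interval -2.10 to 0.72). At this depth a change of either gene within those intervals was not detectable.

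Few of the partners and regulators of these factors had enough reads to be tested. E-proteins (Tcf3, Tcf4, Tcf12) had 1 of 3 genes tested, Tcf4, at a log2 fold change of -0.18. Of 17 Id proteins and bHLH repressors 3 were tested, with Hes6, known to promote differentiation, at -0.27. Of 21 MEF2 co-repressors and co-activators 2 were tested, Tead1 at -0.22 and Crebbp at -0.09. Of 26 genes of kinase, calcium and growth factor signalling 4 were tested, with the muscle growth factor Igf1 at -0.44 (edgeR adjusted p = 0.357) and Igf2 at 0.26. Of 17 satellite cell and myoblast markers 4 were tested, with the cadherin Cdh15 at 0.31 and the integrin Itga7 at 0.20. In total 0 of the 14 tested genes on these 5 lists was past the threshold in edgeR, DESeq2 or limma-voom, and 0 had an unadjusted p under 0.05. With 1.44% of all tested genes past it in edgeR, a count of 0 among 14 is near the background and is not a result about these genes.

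Among 64 muscle genes known as targets of these factors, 49 were tested, and 7 rose, 0 fell and 42 were not past the threshold. Over all 2570 tested genes 0.817% rose and 0.623% fell. The 7 were the oxygen store Mb, the creatine kinase Ckm, the troponins Tnnt1 and Tnni2, the stretch-responsive Ankrd2, the glycolytic enzyme Pgam2 and the calcium pump Atp2a1. Mb went from 661 ± 58.8 to 1099 ± 72.1 CPM (SD, n = 6 each; log2 fold change 0.73, edgeR adjusted p = 3.41e-05). Ckm went from 330.5 ± 39.1 to 508 ± 49.8 (log2 fold change 0.64, edgeR adjusted p = 0.00268). Over the 49 genes the median log2 fold change was 0.11, with 33 above 0, against 0.0024 over all 2570 genes, of which 1298 were above 0. The list was chosen with earlier results of these data known and is not independent evidence of its direction.

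Of 30 genes of dividing cells 10 were tested, and 1 fell, the topoisomerase Top2a, from 98.5 ± 53.7 to 41.3 ± 12.7 CPM (SD, n = 6 each; log2 fold change -1.18, edgeR adjusted p = 0.0457). Of the 10, 9 were below 0, with a median of -0.22. Over all 2570 tested genes 1272 were below 0 and 0.623% fell past the threshold. This list too was chosen with earlier results of these data known and is not independent evidence of its direction. Like Mef2a, Top2a was more spread in controls than in co-cultures. The part of these genes, and of the muscle marker shares given above, in the Myog and Mef2a values was not tested.

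Among the genes whose level over the 12 C2C12 libraries was most like that of Myog, by Pearson's r of log2 CPM over 796 genes with a mean of at least 50 reads, were Hacd1 (0.87), Tsc22d1 (0.86), Vdac1 (0.84) and Psmc5 (0.82). Spearman's rho for these 4 was 0.85 to 0.92. With the group means taken out, r was 0.85 for Hacd1 and 0.64 for Vdac1. Libraries share depth and group in such a comparison, and the values are a description.

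NSC34 held 7 member reads in all: 4 of Mef2a, 1 of Mef2c and 1 of Six4, all in co-culture 2, and 1 of Mef2d in control 2. Co-culture 2 held 55.1% of the co-culture reads. The pooled Mef2a level was 72.7 CPM in co-cultures (exact 95% interval 19.8 to 186) and 0 in controls, where up to 189 would go unseen, so no difference was detectable. Myod1, Myog, Myf5, Myf6 and Pax7 had 0 of 70865 NSC34 reads, which allows up to 42.3 CPM. The Myog level in C2C12 controls pooled, 2358 CPM, was 55.7 times that limit, which is over all NSC34 libraries. Against the limit in NSC34 controls alone, 189 CPM, Myog was 12.5 times as high. Myod1, Myf5, Myf6 and Pax7 in C2C12 controls were below both limits. Of the 8 muscle markers 2 had reads in NSC34, Chrna1 with 20 and Tnnt1 with 3. Over all libraries of a line, Chrna1 stood at 282 CPM in NSC34 and 740 in C2C12, and Tnnt1 at 42.3 and 699. No member passed the filter there, where edgeR tested 49 genes and called 0.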

How the data were processed

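Total RNA of 12 C2C12 and 12 NSC34 libraries was read by Nanopore sequencing. For each line the authors deposited 1 table of raw counts, in which every value is a whole number of reads on an Ensembl transcript. The build is GRCm38, per the submitters' processing notes, while the aligner, counter, strand setting and annotation release were not given in the sources used here. Transcript identifiers were matched without version to GENCODE M21 (37415 of 37677 in C2C12, 10374 of 10427 in NSC34) and counts were summed per gene. Unmatched transcripts held 0.224% and 0.239% of the reads. CPM are per 1000000 of all reads of the library, for members and listed genes alike.

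The main test was edgeR 4.0.16 in R 4.3.3 (filterByExpr, TMM, quasi-likelihood F test) and a gene was past the threshold when its p, adjusted by Benjamini and Hochberg's method, was under 0.05. In C2C12 2570 genes passed the filter and held 88.3% of reads. Of these, 378 had an unadjusted p under 0.05. Transcript use was tested with diffSpliceDGE. For single values, group labels were permuted exhaustively over the 12 libraries (exact, two-sided), which cannot give a p below 0.00216 (Python 3.11.15, scipy 1.17.1). DESeq2 1.42.0 and limma 3.58.1 were alternatives. The edgeR scripts were tested on simulated data. The exact tests of members and the grouping by alternative exon were added after the data had been seen.

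The members and lists were chosen with earlier results of these data known. Named were all members, member transcripts with at least 20 reads, from each list at most 4 genes, those of smallest p, and every listed gene past the threshold, and the 5 genes most like Myog. Some items that this rule names are not reported here. Limits for 0 reads are 3 reads of the total, and intervals are at 95%. Replicates of a group differed by more than sampling noise (chi-square per degree of freedom 1.37 to 3.29). Promoter windows were found for 7 of 9 members, and protein sequences were not used here.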

Additional observations from a re-analysis of the deposited data

Results flagged for a closer look

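In 24 groups of 6 libraries, 2 values lay far from the rest by Dixon's criterion, which chance gives in about 1 of 20 groups. Myf6 in control 4 stood at 8.25 CPM, from 1 read. In control 6 the Mef2a share on the second exon of the pair was 0%, from 3 reads.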

How the results depend on the processing

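The number of C2C12 genes past the threshold was 37, against 58 with library totals, 106 without a filter, 6 without shallow libraries and 11 to 74 with 1 library left out. The number of members past it was 2, against 0 in limma-voom, 0 with the length trend removed, 0 without shallow libraries and 0 to 2 with 1 library left out. Myog was no longer past the threshold in limma-voom (log2 fold change 0.39), with the length trend removed (0.40) or without shallow libraries (0.32), and ranged from 0.37 to 0.49 with 1 library left out. Mef2a was no longer past it in limma-voom (-1.13), with the length trend removed (-1.13) or without shallow libraries (-1.26), and ranged from -1.39 to -0.90 with 1 library left out. Transcripts past the threshold numbered 10, against 126 without a filter, 34 in DESeq2 and 5 to 15 with 1 library left out. The causes were not tested. Replicate numbers did not pair the libraries (correlations of same-numbered libraries -0.05 to 0.10, with 1 of 6 controls most like its own number). With the number as a replicate block, 1 member was past the threshold, Mef2a was at -1.10 (edgeR adjusted p = 0.0602), Myog at 0.42 (0.0242), and 1 transcript was past it. The co-culture differences of the 7 transcript shares moved by less than 1 SD between libraries under 98 of 98 alternatives, but that SD is wide, and 5 of the 7 changed sign under at least 1 alternative (Mef2a-201, Mef2a-208, Mef2c-201, Mef2c-202 and Mef2c-228). Mef2c-218 stayed above 0 (8.61 to 16.7 points) and Mef2d-201 below it (-7.08 to -0.98 points). Without co-culture 2, NSC34 Mef2a, Mef2c and Six4 were at 0 reads in co-cultures. Depth limits Myod1, Myf5, Myf6, Mef2d, Six4 and Pax7 in C2C12 and all members in NSC34.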
